A study of Sus scrofa with 6 samples.

Results

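The genes described here were 10 chaperone and proteotoxic stress genes of pig skeletal muscle: *HSF1*, *HSPA8*, *HSPH1*, *DNAJB1*, *HSP90AA1*, *HSP90AB1*, *HSPB1*, *CRYAB*, *BAG3* and *ZFAND2A*. They are inducible chaperone and stress genes listed under their pig Ensembl symbols, and the list was drawn up with earlier results of these data known. *ZFAND2A* was added because its level in these samples was much higher in the knock-in pigs. Its values are therefore given as a description, without a test. The count table held 9 of the 10 genes among 30476 gene identifiers, and all 9 were among the 13402 genes with enough reads to be tested. *HSP90AA1*, the stress-inducible form of HSP90, had no row under its identifier and was not analysed here.

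RNA was sequenced from the longissimus dorsi, the long muscle of the back, of 6-month-old pigs, with 1 library from each of 3 UCP1-KI and 3 WT pigs. The UCP1-KI pigs carry a knock-in of UCP1, the mitochondrial uncoupling protein of brown fat, that the study placed under adipocyte-specific expression, and the WT pigs lack it. The muscle fibre is therefore not the cell in which the knock-in is meant to act, and the comparison asks how the muscle transcriptome differs in pigs whose fat expresses UCP1. *UCP1* has no identifier in the symbol table used here, and the genotype was not checked in the reads. The study reported no *UCP1* mRNA in the muscle of either genotype, so muscle reads of that gene could not serve as such a check. The sex, the litter and the number of founder clones of these 6 pigs are not given in the sources used here.

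HSF1 is the transcription factor that switches on the heat shock response. It is held inactive by chaperones, is released and trimerizes when misfolded proteins engage those chaperones, and then binds heat shock elements in the promoters of chaperone genes. HSP70 and HSP90 proteins fold clients in cycles driven by ATP, J proteins deliver clients to HSP70, and small heat shock proteins hold unfolding proteins without using ATP. Muscle is rich in the small heat shock proteins, which bind to filament and Z-disc proteins, and it relies on BAG3 to clear proteins damaged by contraction.

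Library totals lay between 30220951 and 35066624 counts. Levels are given as CPM, read counts relative to a library size corrected by TMM factors of 0.781 to 1.18. At these depths 3 counts corresponded to 0.0795 to 0.1096 CPM. The 20 most abundant genes took 39.0 to 44.0% of the counts in the KI pigs and 44.5 to 56.5% in the WT pigs, and the 6 skeletal muscle markers that were found summed to 58074 to 95426 CPM and 74121 to 106607 CPM. Summed markers of adipocytes (60.6 to 208 CPM in KI against 70.9 to 362 in WT), endothelial cells (273 to 508 against 251 to 457), leukocytes (18.5 to 55.5 against 18.02 to 32.4), Schwann cells (12.8 to 33.0 against 10.4 to 31.5) and satellite cells (11.5 to 18.4 against 6.79 to 22.8) overlapped between genotypes. Those of fibroblasts (199 to 367 against 578 to 927) and red blood cells (11.6 to 76.5 against 106 to 181) did not, both being lower in KI, although with library size alone the red blood cell sums overlapped (KI3 at 86.1 and WT2 at 84.3 CPM). Single markers were called in some of these lists: *TEK* of endothelial cells was higher in KI (log2 fold change 1.20, 1 of 4 tested), *CD3E* of leukocytes was higher (1.84, 1 of 5, with all 5 positive, a median of 0.79 and 0.03 without KI2), 3 of 5 fibroblast markers (*COL1A1*, *COL3A1* and *LUM*) were lower and 1 of 4 red blood cell markers (*HBM*) was lower. The part of these other cells in the results was not tested, and in a bulk sample fewer cells of a type and less RNA per cell cannot be told apart.

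A gene was called changed when its unadjusted p in edgeR's quasi-likelihood test was under 0.05 and its log2 fold change exceeded 0.5 in either direction, the study's limits. Of all tested genes 8.19% were called, 3.84% as higher and 4.34% as lower in KI, and none had an adjusted p under 0.05 by edgeR, against 127 genes by DESeq2. Of the 8 members other than *ZFAND2A*, 3 were called higher (*HSP90AB1*, *BAG3* and *HSF1*), none was called lower and 5 were not called. The 3 became 1 without KI1, KI2, WT1 or WT2, and 5 without KI3. None of these 8 had an adjusted p under 0.05 by edgeR or by DESeq2, and 3 had an unadjusted p under 0.05 by each tool. The median log2 fold change of the 8 was 0.71, with 0.46 without KI2, beside −0.02 over all tested genes. The KI and WT values did not overlap for *HSF1*, *HSP90AB1* and *ZFAND2A*, all higher in KI. Over all tested genes, 15.3% had no overlap between the genotypes and 7.59% had none with KI higher. Because the members were chosen with values of this contrast in view, nothing is read from these counts.

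**Figure D1:**
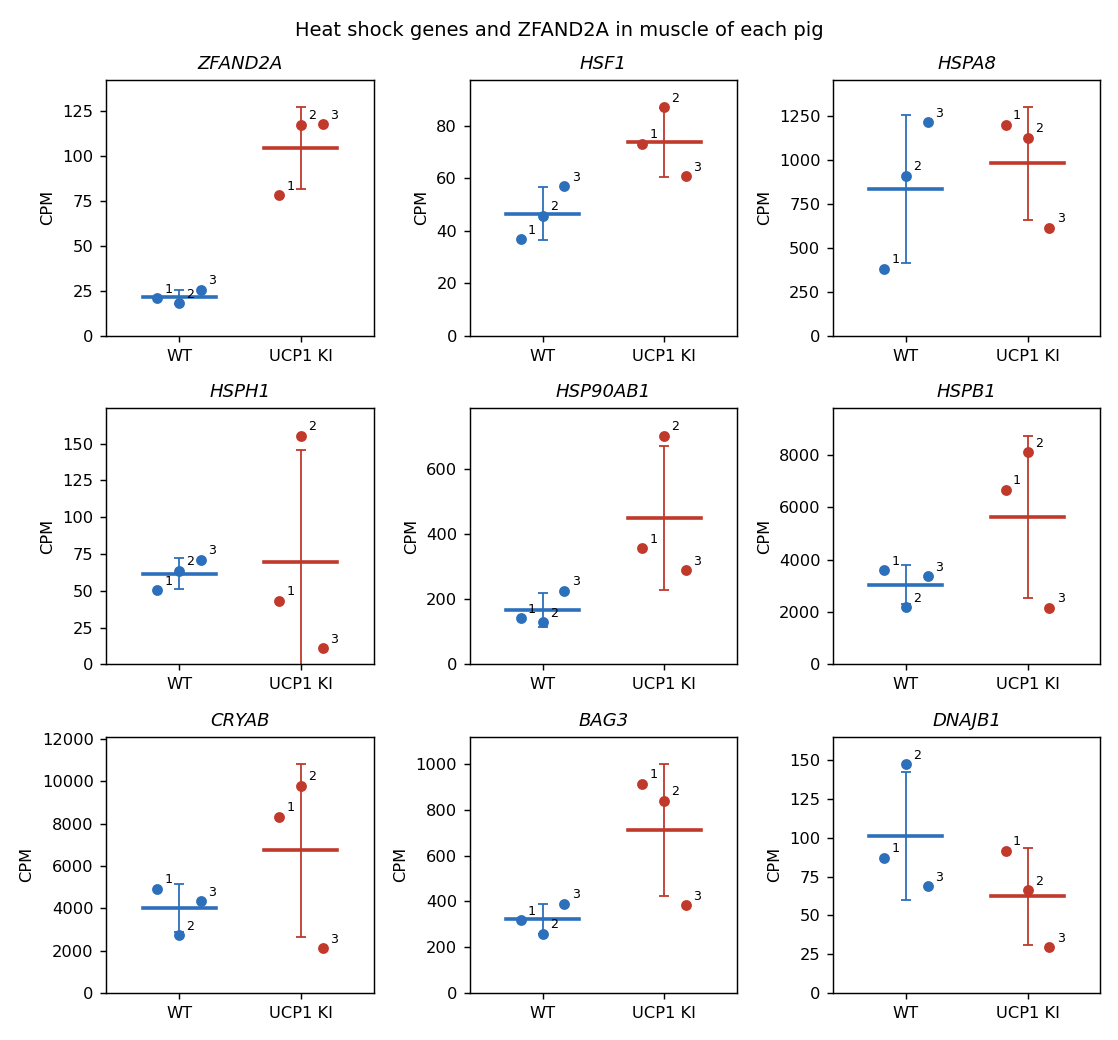
Level of each of the 9 measured genes in CPM (vertical axes, linear, starting at 0 and scaled per gene) in the 3 UCP1-KI and 3 WT pigs. Points are single pigs and bars with error lines are the mean and SD, cut at 0 for *HSPH1*. *ZFAND2A* shows 3 KI pigs between 78.0 and 118 CPM above all WT pigs, while *HSPB1* and *CRYAB* show KI3, at 2171 and 2111 CPM, far below KI1 and KI2, and whether it lies below WT2 depends on the scaling.

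*ZFAND2A* (ENSSSCG00000007554, chromosome 3, 756427 to 776028 in Sscrofa11.1) encodes AIRAP, an arsenite-inducible AN1 zinc-finger protein that binds the proteasome and is a known transcriptional target of HSF1. It stood at 78.0, 117 and 118 CPM in KI1, KI2 and KI3 and at 21.0, 18.3 and 25.8 CPM in WT1, WT2 and WT3. The lowest KI pig was 3.03 times the highest WT pig. The mean was 104 ± 22.7 CPM (SD, n = 3) in KI and 21.7 ± 3.80 CPM (SD, n = 3) in WT, a fitted fold of 4.81 and a log2 fold change of 2.27. Leaving out each pig in turn gave log2 fold changes of 2.15 to 2.44. The spread within each genotype was small, with a ratio of highest to lowest pig of 1.51 in KI and 1.41 in WT, and KI2 and KI3 were level.

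*HSF1* itself (ENSSSCG00000005917, chromosome 4, 463531 to 486483) was modestly higher in KI at the RNA level, which says nothing of the activation of the protein. Its CPM were 73.1, 87.0 and 60.7 in the KI pigs and 36.7, 45.8 and 56.9 in the WT pigs. The groups were separated by a narrow gap, since KI3 was only 1.07 times WT3. The fitted log2 fold change was 0.66 (SE 0.26, edgeR adjusted p = 0.595). The call was lost without KI1, KI2, WT1 or WT2, where the log2 fold change was 0.67, 0.52, 0.52 and 0.65.

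Of the HSP70 machinery, none of the 3 members was called and all 3 overlapped between genotypes. *HSPA8* (ENSSSCG00000015140, chromosome 9, 49982278 to 49986760) encodes HSC70, the constitutive HSP70 of the cytosol. It was at 1202, 1128 and 615 CPM in KI1, KI2 and KI3 and at 384, 911 and 1215 CPM in WT1, WT2 and WT3. The widest spread was among the WT pigs, with WT3 at 3.17 times WT1. Its log2 fold change was 0.23 (SE 0.47, edgeR adjusted p = 0.905), and −0.11 without WT1.

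*HSPH1* (ENSSSCG00000009334, chromosome 11, 7733874 to 7759528) encodes a large HSP70 relative that acts as a nucleotide exchange factor and is strongly heat-inducible. Its KI values were 43.3, 155 and 10.97 CPM, and its WT values were 50.4, 63.7 and 71.1 CPM. The highest and the lowest of the 6 pigs were thus both KI pigs, 14.2 times apart, where the WT pigs spanned 1.41 times. The log2 fold change of 0.18 (SE 0.78, edgeR adjusted p = 0.959) rested on KI2, and was −1.18 without that pig.

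*DNAJB1* (ENSSSCG00000013784, chromosome 2, 64761672 to 64764482), the J protein that works with HSP70 after heat shock, was the only member with a negative log2 fold change. It was at 91.7, 66.2 and 29.5 CPM in the KI pigs and at 87.2, 148 and 68.8 CPM in the WT pigs. KI1 lay above WT3, so the groups overlapped. The log2 fold change was −0.70 (SE 0.46, edgeR adjusted p = 0.701), with −1.08 to −0.32 when each pig was left out.

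Relative to *HSPA8* within the same library, *DNAJB1* stood at 0.0763, 0.0587 and 0.0480 in the KI pigs and at 0.227, 0.162 and 0.0566 in the WT pigs. The ratio *HSPH1* to *HSPA8* was 0.0360, 0.138 and 0.0178 in the KI pigs and 0.131, 0.0699 and 0.0586 in the WT pigs. Both ratios of counts overlapped between the genotypes, and the members of this folding cycle did not keep fixed proportions from pig to pig.

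*HSP90AB1* (ENSSSCG00000001701, chromosome 7, 39237299 to 39250479) encodes the constitutive HSP90 of the cytosol, which also holds HSF1 inactive. It was at 356, 701 and 289 CPM in KI1, KI2 and KI3 and at 142, 130 and 226 CPM in WT1, WT2 and WT3. All KI pigs exceeded all WT pigs, and KI2 stood apart at 2.42 times KI3. The mean was 449 ± 221 CPM (SD, n = 3) in KI and 166 ± 52.2 CPM (SD, n = 3) in WT. KI exceeded WT by a log2 fold change of 1.44 (SE 0.41, edgeR adjusted p = 0.583). No single pig decided the call, which held at 0.96 to 1.72 when any 1 of the 6 was omitted, the lowest value being without KI2. The HSP70 and HSP90 families have near-identical copies and pseudogenes, and how reads shared among them were assigned is not stated, so the levels of *HSPA8* and *HSP90AB1* are uncertain to that extent.

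The 2 small heat shock proteins among the members ordered the KI pigs alike. *CRYAB* (ENSSSCG00000036724, chromosome 9, 39638505 to 39643530) encodes alpha-B-crystallin, which protects desmin filaments. It was at 8326, 9789 and 2111 CPM in the KI pigs and at 4933, 2731 and 4323 CPM in the WT pigs. KI1 and KI2 lay above every WT pig. KI3 lay below every WT pig, but with library size alone it was at 2469 CPM, above WT2 at 2132 CPM. *HSPB1* (ENSSSCG00000039962, chromosome 3, 10038074 to 10039441) encodes HSP27, which binds actin and other filaments. It was at 6664, 8096 and 2171 CPM in the KI pigs and at 3592, 2188 and 3373 CPM in the WT pigs, again with KI1 and KI2 above all WT pigs. KI3 was level with WT2, and above it with library size alone (2539 against 1709 CPM).

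Over the 6 pigs *CRYAB* had a log2 fold change of 0.75 (SE 0.59, edgeR adjusted p = 0.745). For *HSPB1* it was 0.89 (SE 0.53, edgeR adjusted p = 0.680). Neither passed the limits with all pigs, and both did without KI3, at log2 fold changes of 1.18 for *CRYAB* and 1.27 for *HSPB1*. Without KI2 they dropped to 0.39 for *CRYAB* and 0.54 for *HSPB1*. The ratio of *HSPB1* to *CRYAB* counts varied little over the 6 pigs although both genes varied several-fold. It was 0.800, 0.827 and 1.03 in the KI pigs and 0.728, 0.801 and 0.780 in the WT pigs.

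*BAG3* (ENSSSCG00000010686, chromosome 14, 129510240 to 129533998) encodes the co-chaperone that links HSP70 to the small heat shock proteins and directs damaged Z-disc proteins to autophagy. Its values were 913, 840.0 and 383 CPM in the KI pigs and 318, 258 and 389 CPM in the WT pigs. KI1 and KI2 were each more than every WT pig, and the groups overlapped only in that KI3 was just under WT3. With library size alone KI3 was above WT3 (448 against 357 CPM) and the groups did not overlap. The mean was 712 ± 287 CPM (SD, n = 3) in KI and 322 ± 65.6 CPM (SD, n = 3) in WT. This gave a log2 fold change of 1.15 (SE 0.38, edgeR adjusted p = 0.583). The call was lost without KI1, KI2, WT1 or WT2, where the log2 fold change was 0.93, 1.01, 1.14 and 1.01.

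**Figure D2:**
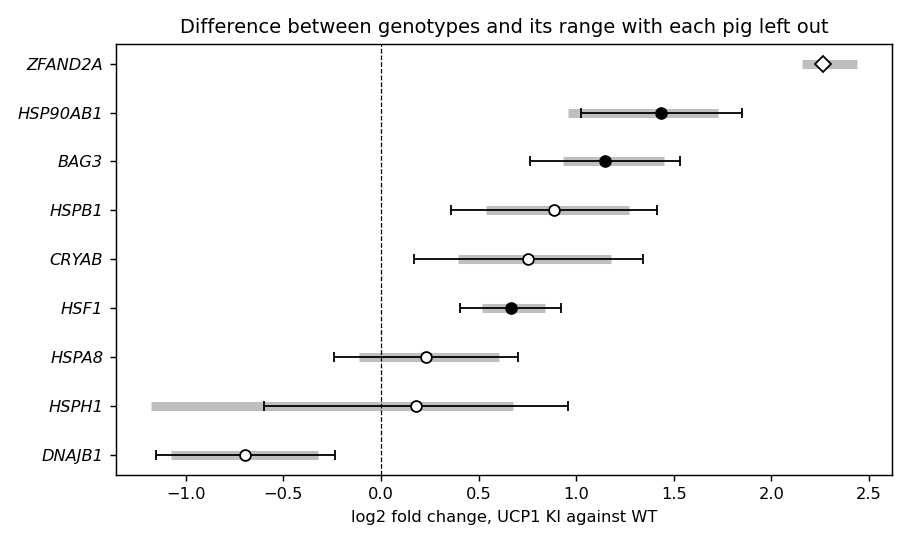
Log2 fold change of KI over WT (horizontal axis) for each of the 9 measured genes. Filled points passed both limits, lines are ± 1 SE, grey bars are the range with each pig left out, and *ZFAND2A* is a diamond without an error line because it was chosen on this contrast. The grey bar of *HSPH1* runs from −1.18 to 0.68 and crosses 0, while that of *HSP90AB1* runs from 0.96 to 1.72.

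The 3 KI pigs did not carry the chaperone genes at like levels. In KI3 all 8 members other than *ZFAND2A* had their lowest KI value, beside 34.3% of all tested genes. With library size alone as the scaling, 6 of the 8 were lowest in KI3, beside 24.4% of all tested genes, and *HSF1* and *HSP90AB1* were then lowest in KI1. In 5 of the 8 KI2 was highest and KI3 lowest, beside 19.8% of all tested genes. *ZFAND2A* had its lowest KI value in KI1 under both scalings, as *HSF1* and *HSP90AB1* did with library size alone, and its KI2 and KI3 values were level.

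The ratio of *ZFAND2A* to *HSF1* counts was 1.07, 1.35 and 1.94 in the KI pigs and 0.572, 0.399 and 0.453 in the WT pigs. This separation follows from the choice of *ZFAND2A* for its high KI level and is no further result. The next 3 ratios were added after the values were seen. *CRYAB* to *ZFAND2A* was 107, 83.6 and 17.96 in the KI pigs and 235, 150 and 168 in the WT pigs. *HSPB1* to *ZFAND2A* was 85.4, 69.2 and 18.5 in the KI pigs and 171, 120 and 131 in the WT pigs. *HSPH1* to *ZFAND2A* was 0.554, 1.33 and 0.0933 in the KI pigs and 2.40, 3.49 and 2.76 in the WT pigs. With *ZFAND2A* as the denominator, the lower KI ratios likewise restate how that gene was chosen. Among the KI pigs all 3 ratios were lowest in KI3.

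The 6 genes with the profile nearest to *ZFAND2A* over the 6 pigs were *CENPU*, *UCHL1*, *DYNC1I1*, *CEBPB*, *TTC9* and *SEC63*, by the root mean square difference of centred log2(CPM + 1) among 10143 genes with a symbol and a mean of at least 1 CPM. *CENPU*, which encodes a centromere protein, had a difference of 0.257 and was low, at 4.27, 9.28 and 6.94 CPM in the KI pigs and 1.13, 0.803 and 0.667 CPM in the WT pigs. *UCHL1*, a ubiquitin hydrolase abundant in neurons, had a difference of 0.334, with 26.7, 45.4 and 37.9 CPM in the KI pigs and 6.84, 3.98 and 4.34 CPM in the WT pigs. The others differed by 0.419 (*DYNC1I1*, a dynein intermediate chain), 0.429 (*CEBPB*, a basic leucine zipper transcription factor), 0.458 (*TTC9*) and 0.462 (*SEC63*, a J protein of the endoplasmic reticulum translocon). None of the 6 is a listed heat shock gene. Of the other members, *HSP90AB1* was nearest at rank 32, then *BAG3* at 248 and *HSF1* at 377. *HSPB1* ranked 2330, *HSPA8* 4527, *CRYAB* 5272, *DNAJB1* 9748 and *HSPH1* 9892. These ranks describe 6 libraries and rest mainly on the genotype difference by which *ZFAND2A* was chosen.

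The wider heat shock network was taken from lists of related genes. Of 64 further listed genes 56 were found and 53 tested. Of these, 2 were called higher (*BAG6* and *PPP5C*), 1 was called lower (*ZFAND1*) and 50 were not called, beside 8.19% called over all tested genes, with a median log2 fold change of 0.35 that was 0.22 without KI2 and 0.57 with library size alone. The 3 calls became 10 with library size alone (1124 of 13402 genes in all) and 11 without WT3 (1541 of 13864 in all), with 7 without KI3, 2 without WT1 and 1 without KI2 or without WT2.

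Among other chaperone targets of HSF1, 20 of 23 were tested. None was called and none had an unadjusted p under 0.05 by edgeR, although 18 of the 20 had a positive log2 fold change. Their median was 0.44, with 0.27 without WT2, 0.78 without WT3 and 0.70 with library size alone. DESeq2 called 2 of them, library size alone 6, and leaving out KI3 or WT3 gave 4 and 6. *HSPA1A*, *HSPA1B* and *HSPA2* were not found under their symbols and were not analysed here. Of the targets described next, *FKBP4* and *DNAJA1* were named by the rule for the co-chaperone and partner lists. *SERPINH1* and *HSPA6* were chosen after their values were seen. *FKBP4*, an HSP90-bound immunophilin, was at 264, 355 and 145 CPM in the KI pigs and 80.5, 101 and 195 CPM in the WT pigs. Its log2 fold change was 1.02 (SE 0.45, edgeR adjusted p = 0.610), and it passed the limits with DESeq2 (1.02) and without KI3 (1.31) or WT3 (1.49), but was at 0.71 without KI2, 0.79 without WT1 and 0.88 without WT2. *DNAJA1*, a farnesylated J protein, was at 392.3, 306 and 75.9 CPM in the KI pigs and 74.1, 143 and 152 CPM in the WT pigs. It was not called with all pigs at 1.07 (SE 0.58, edgeR adjusted p = 0.654), and was called at 1.51 without KI3, beside 0.64 without KI1 and 0.81 without WT1. *SERPINH1*, the collagen chaperone, was at 312, 305 and 57.0 CPM in the KI pigs and 122, 82.3 and 89.8 CPM in the WT pigs. All 3 genes had their lowest KI value in KI3, inside or below the WT range. KI3 was the lowest KI pig in 17 of the 20 targets, beside 34.3% of all tested genes. With library size alone it was the lowest in 15, beside 24.4%.

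*HSPA6*, a strictly inducible HSP70 gene in species that carry it, was at 152, 28.1 and 2.46 CPM in the KI pigs and 0.469, 42.2 and 5.54 CPM in the WT pigs. The order of the pigs did not follow the genotypes. Its log2 fold change of 1.92 had an SE of 1.598 (edgeR adjusted p = 0.762), and its reads too may be shared with other HSP70 genes.

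Of 16 tested partners of HSP70, 1 was called higher and none lower, beside 3.84% called higher over all tested genes. Their median log2 fold change was 0.25, with 0.16 without WT1 and 0.50 with library size alone. The called gene was *BAG6*, a chaperone for exposed hydrophobic segments, at 79.6, 89.0 and 130 CPM in the KI pigs and 54.0, 64.3 and 72.7 CPM in the WT pigs. It rose by a log2 fold change of 0.64 (SE 0.27, edgeR adjusted p = 0.604), and the call was lost without KI2, KI3, WT1 or WT2 (0.40 to 0.70). Of 13 co-chaperones of HSP90, 1 was called higher and none lower, beside the same 3.84%. Their median was 0.53 (0.35 without KI2 and 0.80 with library size alone). With library size alone 6 were called higher, beside 929 of 13402 genes, and without WT3 also 6, beside 750 of 13864 genes. The gene called with all pigs was *PPP5C*, an HSP90-bound protein phosphatase, at 38.2, 41.3 and 49.1 CPM in the KI pigs and 26.8, 27.8 and 34.5 CPM in the WT pigs. It rose by 0.53 on the log2 scale (SE 0.22, edgeR adjusted p = 0.605), and the call was lost without each pig but WT3. The call was also lost when every gene with any count was kept (0.55). *STIP1*, the adaptor that joins HSP70 to HSP90, was at 240, 336 and 116 CPM in the KI pigs and 44.9, 92.4 and 184 CPM in the WT pigs. It was not called with all pigs at 1.11 (SE 0.57, edgeR adjusted p = 0.642), and was called at 1.44 without KI3 and 1.75 without WT3, beside 0.74 without KI2 or without WT1.

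Of the other small heat shock proteins, 4 of 8 were tested and none was called, with a median log2 fold change of 0.44 that was 0.24 without KI2 and 0.97 without WT1. None had an unadjusted p under 0.05 by edgeR, and DESeq2 called none. *HSPB8*, the partner of BAG3, was at 2118, 2367 and 1504 CPM in the KI pigs and 1335, 840.4 and 1866 CPM in the WT pigs. Its log2 fold change was 0.57 (SE 0.39, edgeR adjusted p = 0.706), with 0.32 without WT2 and 0.88 without WT3. *HSPB6* was at 1475, 1672 and 966 CPM in the KI pigs and 2084, 546 and 488 CPM in the WT pigs, a log2 fold change of 0.40 that was 0.063 without WT3 and 0.093 without WT2, and 1.40 and called without WT1. All 4 had their lowest KI value in KI3, as *HSPB1* and *CRYAB* did.

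The 6 tested heat shock factors and regulators of HSF1 included none that was called, with a median of −0.21 that turned to 0.04 with library size alone. *HSF2*, a second factor that can form trimers with HSF1, had a log2 fold change of −0.51 (SE 0.35, edgeR adjusted p = 0.705). *HSF4*, best known from the lens, had 0.37 (SE 0.26, edgeR adjusted p = 0.719). When each pig was left out, *HSF2* ran from −0.76 to −0.17 and *HSF4* from 0.19 to 0.54. In the ZFAND family to which *ZFAND2A* belongs, 5 of 6 other genes were tested. *ZFAND1*, which recruits the proteasome to stress granules, was called lower. It was at 3.91, 4.82 and 5.75 CPM in the KI pigs and 13.8, 9.35 and 9.34 CPM in the WT pigs, without overlap. It fell by 1.16 on the log2 scale (SE 0.29, edgeR adjusted p = 0.568), and the call held without each pig. *ZFAND5*, a muscle-expressed activator of the proteasome, was at 461, 400.1 and 982 CPM in the KI pigs and 349, 595 and 787 CPM in the WT pigs, with a log2 fold change of 0.09. None of the 5 paralogues was called higher, with all pigs or with any 1 left out. Their median was 0.09, with −0.18 without KI3, −0.11 without WT1, 0.38 without WT3 and 0.37 with library size alone.

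Arsenite and metals induce *ZFAND2A* as well, so their other target genes were examined. Of 9 tested genes 1 was called higher, none lower, beside 3.84% called higher over all tested genes. Their median was 0.14, with 0.25 without KI1, 0.29 without WT1 and 0.39 with library size alone. The called gene was *SRXN1*, the sulfiredoxin of the oxidant response, at 30.9, 27.2 and 15.2 CPM in the KI pigs and 13.3, 13.7 and 8.14 CPM in the WT pigs. It rose by 1.06 on the log2 scale (SE 0.35, edgeR adjusted p = 0.583), and the call was lost without KI1, KI2 or WT3 (0.86 to 0.97). *HMOX1*, *MT1A* and *MT2A* were not found under their symbols and were not analysed here.

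AIRAP acts at the proteasome, so the proteasome and the ubiquitin machinery were examined too. Of 29 tested subunits 13 were called higher and none lower, beside 3.84% called higher over all tested genes, with a median log2 fold change of 0.72. *PSMD11*, a lid subunit, rose by 1.31 on the log2 scale, *PSMD6* by 0.79, *ADRM1*, a ubiquitin receptor, by 0.76 and *PSMB4*, a core subunit, by 0.80, each with an edgeR adjusted p of 0.583. The count fell to 3 without KI2, 1 without KI3, 2 without WT1 and 1 without WT2, and was 16 without WT3 and 21 with library size alone, where 929 of 13402 genes were called higher. Of 12 tested ubiquitin shuttle and p97 genes 4 were called higher, with a median of 0.56 that was 0.24 without WT1 and 0.85 without WT3. *VCP*, the p97 segregase, was at 208, 285 and 387 CPM in the KI pigs and 134, 167 and 147 CPM in the WT pigs. It rose by 0.97 on the log2 scale (SE 0.29, edgeR adjusted p = 0.583), without overlap, and the call held without each pig. Its cofactor *NPLOC4* rose by 0.83 (edgeR adjusted p = 0.583), *NFE2L1*, the transcription factor that induces proteasome genes, by 0.79 (edgeR adjusted p = 0.602) and *UBQLN2*, a ubiquitin shuttle, by 0.88 (edgeR adjusted p = 0.603). The 4 calls became 2 without KI2, 3 without WT1, 1 (*VCP*) without WT2 and 5 without WT3. Without KI3 there were 2 called higher and 1 lower (*HDAC6*).

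The order of the KI pigs differed between these lists. In 28 of the 29 proteasome subunits KI3 was highest and KI1 lowest, beside 19.9% of all tested genes, and in 0 of 29 was KI2 highest and KI3 lowest. Both counts were the same with library size alone, where 31.9% of all tested genes had KI3 highest and KI1 lowest. Of the 8 other members, 0 had the proteasome order. Another order, with KI2 highest and KI3 lowest, was found in 10 of 17 chaperones of the endoplasmic reticulum, 10 of 20 HSF1 target chaperones and 5 of 7 subunits of the CCT chaperonin, with 10, 9 and 2 when library size alone was used. Of all tested genes 19.8% had this order, and 17.8% with library size alone. These orders are counts over genes of the same 3 pigs and carry no test.

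**Figure D3:**
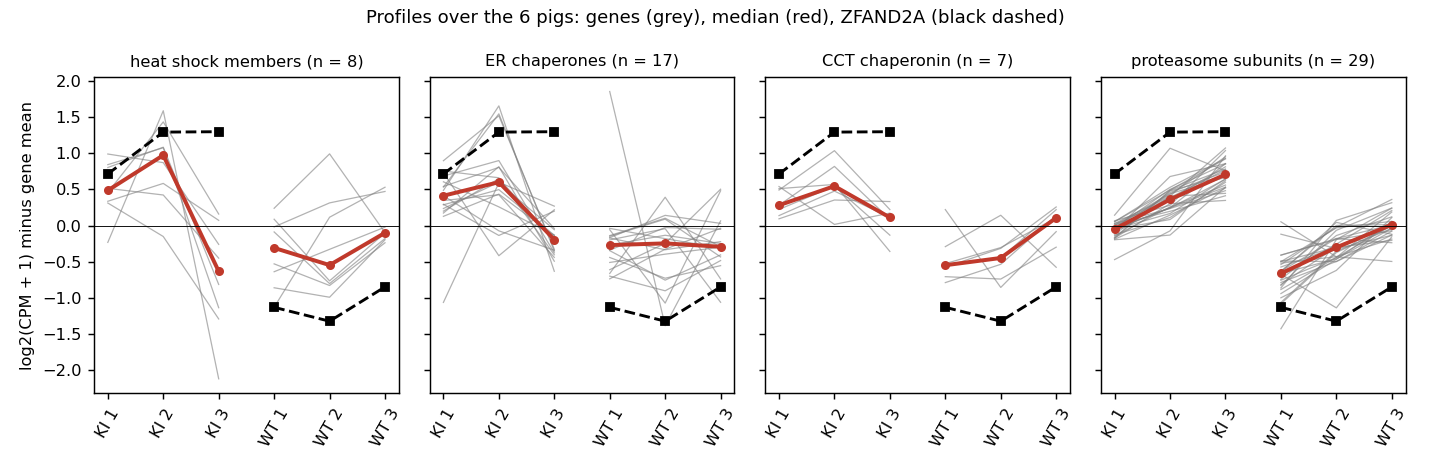
Log2(CPM + 1) of each gene in each pig, centred on the gene's mean over the 6 pigs (vertical axis), in 4 panels for the 8 members other than *ZFAND2A*, 17 chaperones of the endoplasmic reticulum, 7 CCT subunits and 29 proteasome subunits. Grey lines are genes, the red line is the median of the panel and the black dashed line is *ZFAND2A*; lines join the values of a gene only, since pigs have no order. In KI3 the median is −0.63 for the members and 0.71 for the proteasome subunits, and *ZFAND2A* is at 1.298.

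**Figure D4:**
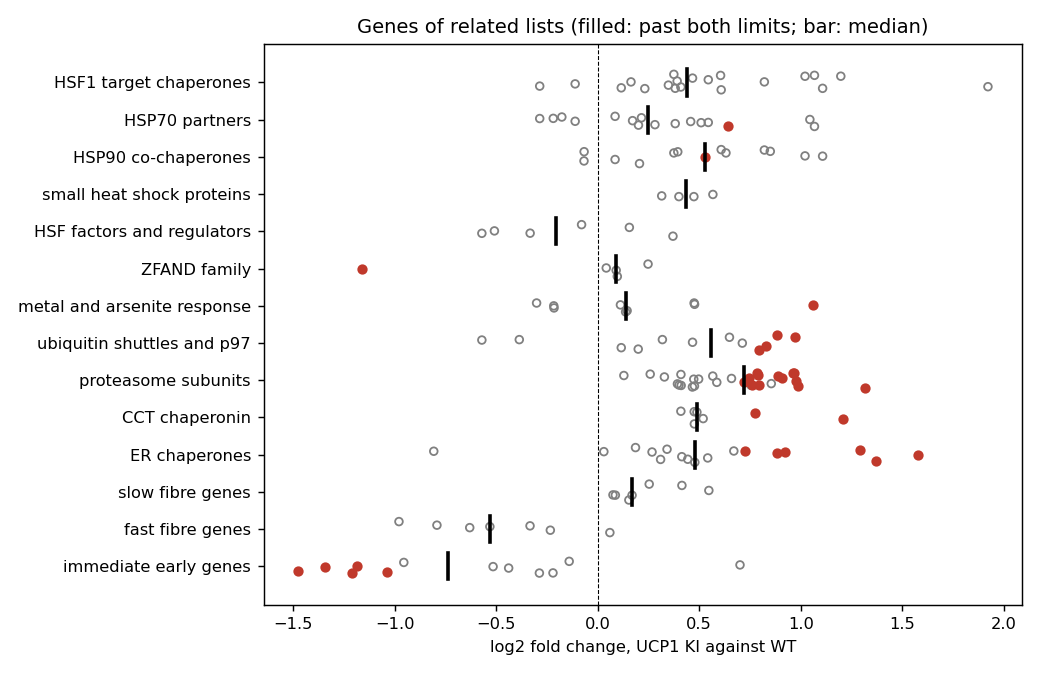
Log2 fold change of KI over WT (horizontal axis) for every tested gene of each list, with filled points past both limits and a bar at each median. The medians are 0.72 for proteasome subunits, 0.44 for HSF1 target chaperones and −0.74 for immediate early genes, beside −0.02 over all tested genes.

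Chaperones outside the cytosolic heat shock response were set beside the members. Of 17 tested genes of the endoplasmic reticulum, which HSF1 does not mainly control, 6 were called higher and none lower. Over all tested genes 3.84% were called higher. The median of the 17 was 0.48. *HSPA5*, the HSP70 of that compartment, was at 244, 375 and 104 CPM in the KI pigs and 79.9, 69.3 and 92.9 CPM in the WT pigs, without overlap. It rose by 1.58 on the log2 scale (SE 0.45, edgeR adjusted p = 0.583). *PDIA4*, a disulfide isomerase, rose by 1.37, *HERPUD1*, of the degradation machinery, by 0.73 and *MANF*, a secreted stress protein, by 0.92, each with an edgeR adjusted p of 0.583. *PDIA4* was at 0.74 without KI2 and lost its call there and without WT2. *HERPUD1* lost its call without KI2, WT1 or WT2 (0.56 to 0.73), and *MANF* without each pig but KI3 (0.67 to 0.98). The 6 calls became 1 without KI2, 2 without WT1, 3 without KI1, WT2 or WT3, and 8 without KI3. With library size alone they became 9, where 929 of 13402 genes were called higher. Of 7 tested CCT subunits, which fold actin and tubulin, 2 were called higher, beside the same 3.84% over all tested genes. They were *CCT8* at 1.21 (edgeR adjusted p = 0.544) and *CCT3* at 0.78 (edgeR adjusted p = 0.608). The call of *CCT3* was lost without KI1, KI2, WT1 or WT2 (0.53 to 0.85) and with median-of-ratios factors (0.77). With library size alone 5 subunits were called higher, beside 929 of 13402 genes. Without WT3 4 were, beside 750 of 13864 genes.

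Other features of the muscle are given beside these levels. Slow fibre genes were examined because the small heat shock proteins are more abundant in slow fibres. Of 9 listed, *MYH7* and *MYOZ2* were not found under their symbols. None of the 7 tested was called. Their median of 0.17 ran from −0.16 without WT2 to 1.16 without WT1, where 3 were called. All 7 had their lowest KI value in KI3, 6 with library size alone. *MYL2*, the slow regulatory light chain, was at 4771, 3804 and 2429 CPM in the KI pigs and 7139, 1316 and 1333 CPM in the WT pigs. *CSRP3*, a Z-disc protein chosen after its values were seen, was at 1105, 1270 and 48.0 CPM in the KI pigs and 1436, 177 and 44.5 CPM in the WT pigs. WT1, the WT pig highest in both, was also the WT pig highest in *CRYAB* and *HSPB1*. Of 11 listed fast fibre genes, *MYH1*, *MYH2*, *MYH4* and *MYLPF* were not found, so neither fibre list held a myosin heavy chain. None of the 7 fast fibre genes tested was called. Their median of −0.53 was −0.11 without KI2, 0.01 without WT3 and −0.89 without WT1, where *TNNC2* was called lower. All 5 leukocyte markers were highest in KI2 and lowest in KI3 among the KI pigs, the order that 5 of the 8 members had. Immediate early genes, which respond within minutes to handling and stress, summed to 830.2 to 1320 CPM in the KI pigs and 1760 to 1876 CPM in the WT pigs without overlap. With library size alone the sums overlapped, KI2 being at 1406 and WT2 at 1374 CPM. Of 12, none was called higher and 5 were called lower, beside 4.34% called lower over all tested genes. The calls were led by *DUSP1* at −1.21 (edgeR adjusted p = 0.481) and by *NR4A1* at −1.19, *FOSB* at −1.48 and *IER2* at −1.04 (edgeR adjusted p = 0.583 each). The median of the 12 was −0.74 and became −0.40 without KI3, where 4 were called lower and 1 (*JUNB*) higher. The part of fibre composition, leukocyte content and tissue handling in the levels of the chaperone genes was not tested.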

How the data were processed

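The authors deposited a table of raw read counts per Ensembl pig gene, 1 column per library, unnormalized. The submitters' processing notes name FastQC 0.11.2, Trimmomatic 0.36, HISAT2 2.0, StringTie 1.3.3b, bedtools 2.26.0, DESeq2 1.12.4 and the build Sscrofa11.1; the counting program and its handling of shared reads and strand are not given in the sources used here. Symbols came from a table pairing 14864 of the 30476 identifiers with names, and gene positions from RefSeq on Sscrofa11.1.

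Counts were filtered with filterByExpr, scaled by TMM and fitted on genotype alone with edgeR 4.0.16 (quasi-likelihood test, R 4.3.3) over 13402 genes, with Benjamini-Hochberg adjustment over all of them. SE is the log2 fold change divided by the square root of F. No 2 libraries agreed within sampling noise. GEO lists the libraries as separate samples; p-values measure only the spread between these samples. The code was tested on simulated counts. Members and gene lists were chosen with earlier results of these data known. Named genes were the members, up to 4 called genes per list by smallest p (else the most abundant up to 2), and the 6 profiles nearest to *ZFAND2A*; others are marked. Alternatives were median-of-ratios factors, library size alone, other count filters (any count, or at least 10 in every pig), DESeq2 1.42.0, a replicate block and leaving out each pig. Lengths of transcripts and promoter sequences were not used here, so levels are not compared per length.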

Additional observations from a re-analysis of the deposited data

How the results depend on the processing

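Without TMM, with library size alone, the median log2 fold change of all tested genes shifted by 0.25 and the calls split into 929 higher and 195 lower, against 515 and 582, so directions are relative to that shift. The 53 wider heat shock genes gave 3 calls, but 5 when every gene with any count was kept, 5 with DESeq2 and 10 with library size alone. *DNAJB4* turned to 0.14 with library size alone. The cause of these changes was not tested. Leaving out each pig in turn gave 678 to 1541 called genes over the whole table, the lowest without KI2 and the next, 718, without WT2. It gave 1 to 11 calls among the wider heat shock genes, 1 to 5 among the 8 members other than *ZFAND2A* (2 to 6 if that gene, chosen on this contrast, is counted), and a median of 0.46 to 0.98 for the 8 others. The 1 call without KI1, KI2, WT1 or WT2 was *HSP90AB1*, and *HSPB1* and *CRYAB* were added without KI3. Log2 fold changes crossed 0 in that series for *DNAJB4* (−0.48 to 0.30), *HSPA8* (−0.11 to 0.60), *HSPH1* (−1.18 to 0.68), *MYL2* (−0.21 to 1.47), *OSGIN1* (−0.11 to 0.42), *TNNC1* (−0.24 to 0.85), *UBB* (−0.094 to 0.34), *ZFAND5* (−0.42 to 0.38) and *ZFAND6* (−0.18 to 0.45), none of them called with all pigs. The labels do not say whether replicate numbers pair KI with WT pigs. Deviations of same-numbered pigs correlated at 0.00227, 0.0961 and 0.288, and not every pig correlated best with its own number. With 3 pigs a genotype these correlations cannot decide it. With the replicate block the calls were 3 of the 8 other members, 3 wider genes and 1114 genes in all, the median of the 8 members was 0.61, and *HSPH1* turned to −0.49. Under the block *CCT3* (0.80), *MANF* (0.83) and *NFE2L1* (0.80) were no longer called. There were 3 pigs a genotype, with a common dispersion of 0.178, and counting error adds to the spread of genes with few reads.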

Other observations

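*ZFAND2A* lies near the end of chromosome 3. Of the 6 annotated genes on either side of it, 12 in all, 3 were tested and none was called: *GPER1*, a membrane estrogen receptor, had a log2 fold change of −0.33, *MICALL2* of −0.22 and *INTS1*, an Integrator subunit, of 0.09. Their KI and WT values overlapped. These neighbours were examined after the values of *ZFAND2A* were seen.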
